A study of Mus musculus with 12 samples.

Results

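The genes described here are 9 membrane proteins of myoblast fusion and cell-to-cell adhesion in C2C12 cells, mouse skeletal myoblasts that can be driven to stop dividing and join into multinucleated myotubes. They were Mymk and Mymx, the cadherins Cdh15, Cdh2 and Cdh11, the tetraspanins Cd9 and Cd81, and the junctional adhesion molecules Jam2 and Jam3. They were chosen by name, as the rows whose Ensembl gene identifier maps to these symbols, and made up 9 of the 46983 genes in the table. RNA-seq was performed on 12 libraries in 4 groups of 3 biological replicates. WT_0d and WT_5d were cells carrying the PB-IP vector, sampled on 0d and 5d of myogenic differentiation, and PPARγ/+_0d and PPARγ/+_5d were cells carrying the same PiggyBac vector with the PPARγ coding sequence, sampled on the same days. The PPARγ/+ cells had been stably transfected and selected with puromycin, and the study's methods do not describe this selection separately for the vector group. Whether either cell type is a single clone is not given in the sources used here. The label on the design also speaks of inducible expression with uninduced controls, so that the state called WT is known here only as the vector group.

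Myoblast fusion needs cells that recognize each other, adhere, and then merge their membranes. Mymk encodes myomaker, a multipass membrane protein required on both partner cells, and Mymx encodes myomixer (also named myomerger or minion), a microprotein that drives the later opening of the fusion pore. M-cadherin (Cdh15), N-cadherin (Cdh2) and cadherin-11 (Cdh11) hold neighbouring myogenic cells together through calcium-dependent contacts linked to catenins, the tetraspanins Cd9 and Cd81 organize membrane partners and restrain fusion of myogenic cells, and Jam2 and Jam3 bind each other across a cell contact.

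The Mymx open reading frame is shown because Mymx, with Mymk, was called between days in both cell types, and this coding sequence is short enough to print whole. It spans 255 bases on the minus strand (GRCm38, chr17:45601417-45601671) and encodes 84 codons before the stop, with the start and stop codons in capitals.
Mymx: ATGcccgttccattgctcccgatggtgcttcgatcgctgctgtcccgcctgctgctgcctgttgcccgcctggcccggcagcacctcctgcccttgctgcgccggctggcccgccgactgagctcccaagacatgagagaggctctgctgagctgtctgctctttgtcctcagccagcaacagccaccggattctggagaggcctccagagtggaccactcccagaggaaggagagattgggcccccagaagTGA

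Promoter sequences were in the RefSeq table (GRCm38.p6) for 3 of the 9 genes, Cdh15, Cd9 and Cd81, and not for Mymk, Mymx, Cdh2, Cdh11, Jam2 or Jam3. They are shown because these genes moved in 3 different ways, and cover 250 bases before to 50 bases after the annotated start. Capitals mark CANNTG, the E-box letters read by MyoD and myogenin, a motif that is its own reverse complement. The Cdh15 promoter is chr8:122848124-122848423 on the plus strand, that of Cd9 is chr6:125494711-125495010 on the minus strand, and that of Cd81 is chr7:143052500-143052799 on the plus strand. The gene span given below for Cdh15 begins at 122847966, so its whole window lies inside that span. Its E-box positions are counted from the RefSeq start and not from the first base of the span.
Cdh15: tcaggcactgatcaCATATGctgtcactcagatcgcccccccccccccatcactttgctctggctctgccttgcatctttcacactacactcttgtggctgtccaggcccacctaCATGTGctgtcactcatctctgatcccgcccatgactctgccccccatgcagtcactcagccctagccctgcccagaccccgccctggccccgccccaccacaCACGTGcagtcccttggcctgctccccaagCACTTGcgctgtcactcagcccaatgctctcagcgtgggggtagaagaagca
Cd9: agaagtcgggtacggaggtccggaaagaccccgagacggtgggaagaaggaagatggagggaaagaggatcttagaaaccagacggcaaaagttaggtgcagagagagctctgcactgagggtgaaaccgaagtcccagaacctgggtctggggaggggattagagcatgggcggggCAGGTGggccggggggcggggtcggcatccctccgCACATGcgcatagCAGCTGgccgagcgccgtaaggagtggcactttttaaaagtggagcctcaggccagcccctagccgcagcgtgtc
Cd81: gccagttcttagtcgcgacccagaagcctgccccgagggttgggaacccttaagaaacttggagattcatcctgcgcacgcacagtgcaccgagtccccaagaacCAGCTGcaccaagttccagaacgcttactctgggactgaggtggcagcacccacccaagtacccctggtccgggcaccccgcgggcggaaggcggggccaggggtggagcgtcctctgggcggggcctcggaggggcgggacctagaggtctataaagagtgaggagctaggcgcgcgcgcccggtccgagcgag

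Cdh15 held 4 E-boxes, starting at -236, -135, -32 and -2 from the start site, and 6.49% of the 32851 promoters in the table held at least 4. Cd9 held 3, starting at -73, -38 and -25 (at least 3 in 17.6% of promoters), and Cd81 held 1 at -145 (at least 1 in 72.3%). The matches of Cd9 and Cd81 include the letters CAGCTG once each, which Cdh15 does not hold in this window. AGGTCA, the half-site from which nuclear receptor elements such as that of PPARγ with RXR are built, was on neither strand of the 3 windows, and 16.3% of all promoters held at least 1. These are matches of letters in a short window and are not evidence of binding.

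The depth of the 12 libraries was 18581300 to 26073154 mapped fragments, recovered from the whole-number steps of the FPKM values (fragments normalized by transcript length and by mapped fragments). Pparg itself was 3.12 to 7.56 FPKM in the 6 WT libraries and 28.0 to 92.7 FPKM in the 6 PPARγ/+ libraries, which follows the labels. The myoblast markers Des, Myod1, Myf5 and Vim were detected in every library, the 5 endothelial, 4 osteoclast and 4 epithelial markers were each below 1 FPKM in every library, and 3 of the 5 leukocyte and macrophage markers (Ptprc, Csf1r and Itgam) were too. The rest of that list had signal in all 12 libraries, Cd68 at 2.0 to 5.09 FPKM and Cd14 at 5.29 to 10.4 FPKM. Of the 5 adipocyte markers 4 had signal in PPARγ/+ cells, with a summed level of 2.81 to 4.95 FPKM on 0d and 13.0 to 54.9 FPKM on 5d against at most 0.0794 FPKM in WT cells, and Lep was at 0 throughout. A pair of WT libraries stood apart: WT_0d replicate 2 had a summed myotube marker level (Myog, Myh3, Ckm, Acta1 and Tnnt3) of 92.2 FPKM where the other WT_0d libraries had 13.6 and 8.88, and WT_5d replicate 3 had 804 FPKM where the other WT_5d libraries had 3640 and 2720 and the PPARγ/+_5d libraries 813 to 956. For the 9 genes, results whose call changed without either library, and the changes of Mymk and Mymx with time in WT cells, are given with and without it.

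All 9 genes had fragments in all 12 libraries and passed the filter on low values. The identifiers and GRCm38 positions were ENSMUSG00000009214 on chromosome 2 from 27061636 to 27072179 for Mymk, ENSMUSG00000079471 on chromosome 17 from 45600971 to 45602102 for Mymx, ENSMUSG00000031962 on chromosome 8 from 122847966 to 122867397 for Cdh15, and ENSMUSG00000024304 on chromosome 18 from 16588877 to 16809246 for Cdh2. Cdh11 was ENSMUSG00000031673 on chromosome 8 from 102632095 to 102785642, Cd9 was ENSMUSG00000030342 on chromosome 6 from 125460266 to 125494791, and Cd81 was ENSMUSG00000037706 on chromosome 7 from 143052739 to 143067934. Jam2 was ENSMUSG00000053062 on chromosome 16 from 84774123 to 84825928 and Jam3 was ENSMUSG00000031990 on chromosome 9 from 27097384 to 27155421. Cd81, Cdh15 and Jam2 lie on the plus strand and the other 6 on the minus strand. Exons of Cd9, Cd81 and Jam3 overlap those of an opposite-strand gene by 218, 104 and 1159 bases, so reads of Jam3 and its antisense partner Gm48796 in particular cannot be told apart if strand was not used in counting.

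The levels of the 9 genes per length of transcript, as FPKM, differed widely on 0d. In WT_0d cells Cd9 was the highest at 121 ± 8.44 FPKM (mean ± SD, n = 3, as in all values of this kind), followed by Cd81 at 75.1 ± 2.85, Cdh15 at 35.1 ± 12.8, Jam2 at 18.8 ± 4.94, Cdh2 at 13.5 ± 0.429, Cdh11 at 8.06 ± 1.71, Jam3 at 5.11 ± 0.381, Mymk at 4.41 ± 5.42 and Mymx at 0.451 ± 0.566 FPKM. The neighbours Cdh15 and Jam2, Jam3 and Mymk, and Mymk and Mymx overlapped between libraries, and the other neighbours did not. In PPARγ/+_0d cells the order changed in the middle, with Cdh2 next after Cd81 at 15.7 ± 0.435 FPKM, ahead of Jam2 and Cdh15, which overlapped each other. On 5d Mymk had the highest mean in both cell types, although its libraries overlapped those of Cd81 in WT_5d and those of Cd9 in PPARγ/+_5d, and Jam3 was the lowest in both with Cdh11 overlapping it.

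**Figure D1:**
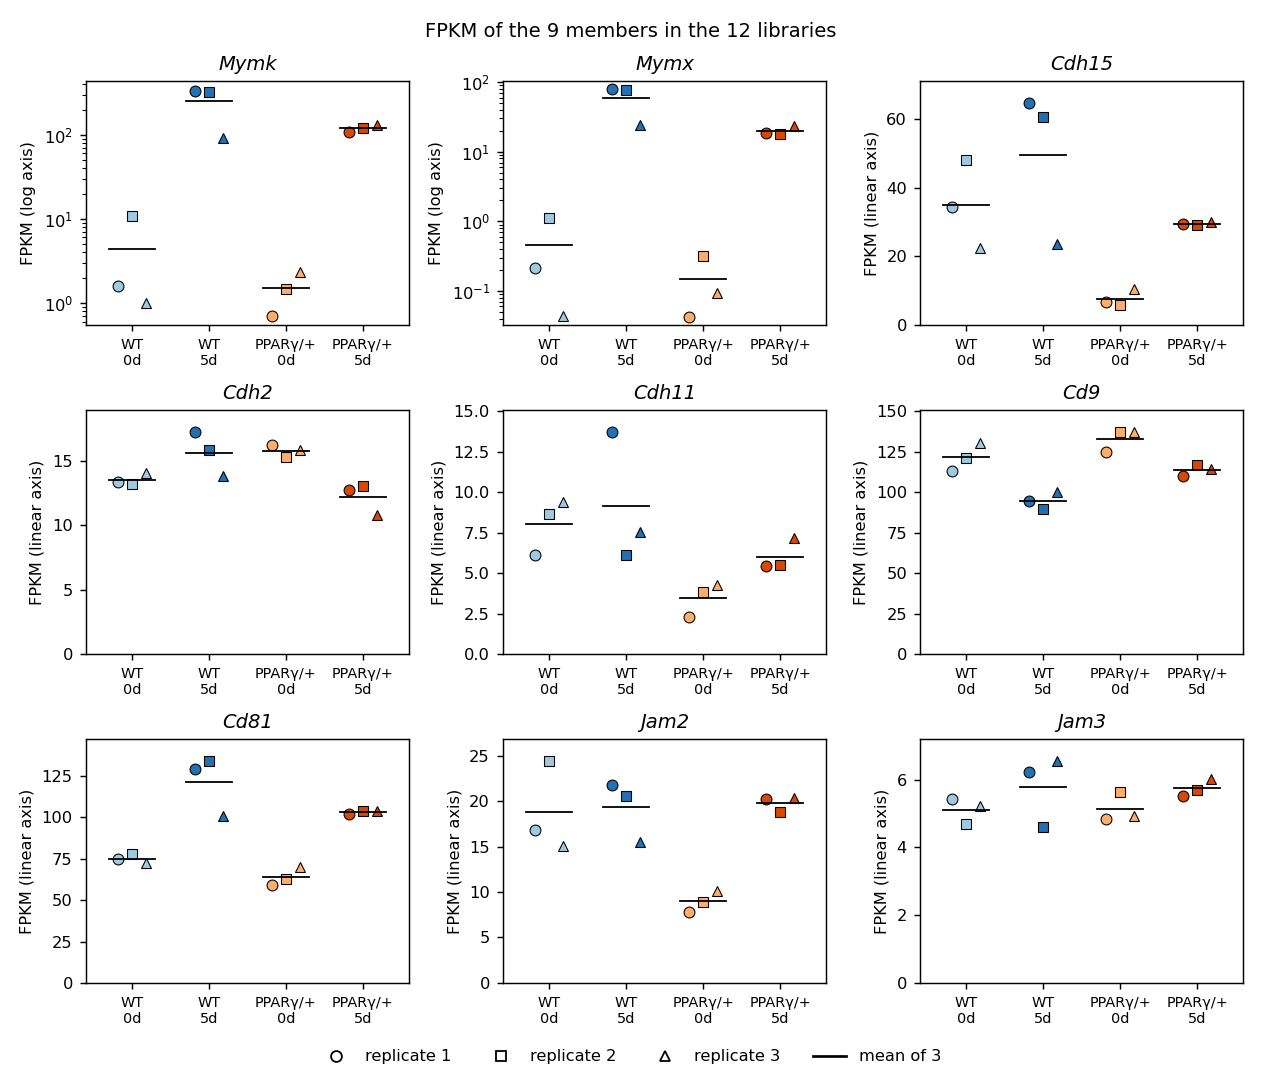
FPKM of each of the 9 genes (y axis, log for Mymk and Mymx, linear from 0 for the others) in the 4 groups (x axis), 1 point per library with the symbol giving the replicate number and a line at the mean of 3. Mymk and Mymx stand far higher on 5d in both cell types, Cdh15 and Jam2 are lowest in PPARγ/+_0d, and replicate 3 of WT_5d lies below its group in Mymk, Mymx, Cdh15 and Cd81.

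The first question was how these genes change with time in WT and in PPARγ/+ cells. A gene counted as called at an unadjusted p of at most 0.05 and at least 2-fold (limma on log2(FPKM + 0.1), 18023 genes, 3 libraries per day). In WT cells 2 of the 9 were called higher on 5d, Mymk and Mymx, where 8.94% of all genes tested were called higher, and 0 of 9 were called lower, where 7.53% were. In PPARγ/+ cells 4 of the 9 were called higher, Mymk, Mymx, Cdh15 and Jam2, where 9.11% of all genes were, and 0 of 9 lower, where 6.06% were. The median log2 fold change of the 9 was 0.21 in WT and 0.81 in PPARγ/+ cells, against -0.08 and -0.10 over all genes tested. The libraries of the 2 days did not overlap for 4 of the 9 in WT cells, where 51.1% of all genes tested did not overlap, and for 8 of the 9 in PPARγ/+ cells, where 58.1% did not. The 9 genes were chosen with earlier results of these data known, so their counts are a description of the list.

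Mymk was 1.57, 10.7 and 1.0 FPKM in the 3 WT_0d libraries and 336, 321 and 92.6 FPKM in the 3 WT_5d libraries. In PPARγ/+ cells it was 0.705, 1.45 and 2.36 FPKM on 0d and 109, 119 and 130 FPKM on 5d. The days did not overlap in either cell type. The log2 fold change was 6.32 ± 0.93 (SE; 79.7-fold, 95% interval 16.7 to 380, adjusted p = 0.00335 by limma) in WT and 6.36 ± 0.37 (82.1-fold, 44.5 to 151, adjusted p = 4.99e-05) in PPARγ/+ cells. The WT value was 7.31 without WT_0d replicate 2, 6.92 without WT_5d replicate 3 and 7.92 without both, called each time, so its fold moved by over 1.5 times with either library. In bulk RNA, more cells that express a gene and more RNA per such cell cannot be told apart.

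Mymx was 0.211, 1.1 and 0.0443 FPKM in WT_0d and 79.6, 76.1 and 24.1 FPKM in WT_5d. It was 0.0420, 0.314 and 0.0938 FPKM in PPARγ/+_0d and 18.4, 17.8 and 23.6 FPKM in PPARγ/+_5d. The 0d values rested on few fragments, 4, 27 and 1 in WT and 1, 8 and 2 in PPARγ/+ cells, against 372 to 1978 on 5d, so the size of the fold is loosely set by the 0d side. On the log2(FPKM + 0.1) scale the change was 7.13 ± 0.84 (140-fold, 34.5 to 567, adjusted p = 0.00148 by limma) in WT and 6.46 ± 0.38 (88.2-fold, 47.0 to 165, adjusted p = 5.13e-05) in PPARγ/+ cells. The WT value was 7.96 without WT_0d replicate 2, 7.69 without WT_5d replicate 3 and 8.52 without both, called each time. The order of the 2 genes by fold depended on the pseudocount: with a pseudocount of 1 the changes were 5.79 for Mymk and 5.28 for Mymx in WT and 5.64 and 4.18 in PPARγ/+ cells. The level of Mymx per length stayed below that of Mymk in every library.

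The cadherins moved apart. Cdh15, the M-cadherin of satellite cells and myoblasts, was 34.4, 48.2 and 22.6 FPKM in WT_0d and 64.6, 60.7 and 23.6 FPKM in WT_5d, and these overlap. In PPARγ/+ cells it was 6.69, 5.90 and 10.5 FPKM on 0d and 29.4, 29.2 and 30.0 FPKM on 5d, and it rose 3.92-fold (95% interval 2.82 to 5.46, log2 fold change 1.97 ± 0.20, adjusted p = 0.00036 by limma). In WT cells the log2 change of 0.43 ± 0.45 was not called, and without WT_0d replicate 2 and WT_5d replicate 3 together it was 1.16 and called (adjusted p = 0.0295).

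Cdh2, the broadly expressed N-cadherin, was the steadiest of the 3 at 13.3, 13.2 and 14.0 FPKM in WT_0d and 17.2, 15.8 and 13.8 FPKM in WT_5d. It was 16.2, 15.3 and 15.8 FPKM in PPARγ/+_0d and 12.7, 13.0 and 10.8 FPKM in PPARγ/+_5d. The days overlapped in WT cells, and every PPARγ/+_5d library was below every PPARγ/+_0d library. The log2 change in PPARγ/+ cells was -0.38 ± 0.08 (adjusted p = 0.00776 by limma), short of 2-fold, and in WT cells it was 0.21 ± 0.10 (adjusted p = 0.148). With libraries rescaled by the median-ratio method the PPARγ/+ value was -0.25 (adjusted p = 0.051 by limma).

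Cdh11, a cadherin of mesenchymal cells, was 6.13, 8.66 and 9.38 FPKM in WT_0d and 13.7, 6.12 and 7.53 FPKM in WT_5d, overlapping. It was 2.30, 3.85 and 4.28 FPKM in PPARγ/+_0d and 5.41, 5.47 and 7.17 FPKM in PPARγ/+_5d, where the days did not overlap. The log2 change in PPARγ/+ cells was 0.81 ± 0.24 (adjusted p = 0.0299 by limma), also short of 2-fold, and in WT cells 0.11 ± 0.32.

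Taken as parts of the summed FPKM of the 3 cadherins, Cdh15 was 60.6% ± 10.2 in WT_0d, 64.5% ± 10.8 in WT_5d, 28.2% ± 5.63 in PPARγ/+_0d and 61.9% ± 0.629 in PPARγ/+_5d. Cdh2 was 24.6% ± 5.80, 22.6% ± 7.0, 59.0% ± 6.61 and 25.5% ± 2.56 in the same order. PPARγ/+_0d was therefore the group in which Cdh2 outweighed Cdh15, in 3 of 3 libraries. The ratio of Cdh15 to Cdh2 was 1.62 to 3.66 in WT_0d, 1.71 to 3.83 in WT_5d, 0.385 to 0.668 in PPARγ/+_0d and 2.25 to 2.78 in PPARγ/+_5d. Over both days its log2 ratio was lower in PPARγ/+ than in WT cells by -1.31 (exact permutation p = 0.025, adjusted p = 0.05 over 8 ratio tests), and over both cell types it was higher on 5d by 1.29 (exact permutation p = 0.025, adjusted p = 0.05). Both are at the threshold and passed it without WT_5d replicate 3 (-1.50 and 1.48) but missed it without most of the other libraries. Each is a mean over unlike parts, since the ranges overlapped between cell types on 5d and between days in WT cells. The ratio of Cdh11 to Cdh2 differed by 0.55 between days (adjusted p = 0.13, exact permutation) and by -0.80 between cell types (adjusted p = 0.064, exact permutation). The latter passed the threshold without WT_5d replicate 2 (-0.92, adjusted p = 0.04, exact permutation) and without PPARγ/+_5d replicate 3 (-0.90, adjusted p = 0.05, exact permutation).

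**Figure D2:**
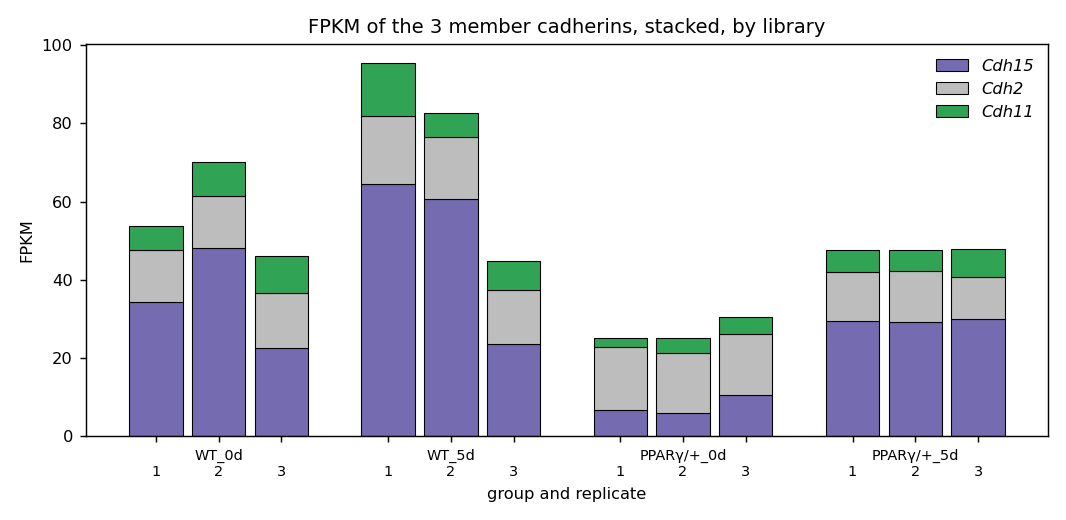
FPKM of Cdh15, Cdh2 and Cdh11 (y axis, stacked from 0) in each of the 12 libraries (x axis, group and replicate number). The sum is at most 30.6 FPKM in PPARγ/+_0d and 47.5 to 48.0 FPKM in PPARγ/+_5d, and the Cdh15 part makes most of that difference.

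The tetraspanins went in opposite directions by small amounts. Cd9 was 113, 121 and 130 FPKM in WT_0d and 94.4, 89.8 and 100 FPKM in WT_5d, and 125, 137 and 137 FPKM in PPARγ/+_0d against 110, 117 and 114 FPKM in PPARγ/+_5d. Cd81 was 74.9, 78.0 and 72.3 FPKM in WT_0d and 129, 134 and 101 FPKM in WT_5d, and 58.9, 62.5 and 70.0 FPKM in PPARγ/+_0d against 102, 104 and 104 FPKM in PPARγ/+_5d. Every 5d library was below every 0d library for Cd9 and above for Cd81, in both cell types. None of these passed the 2-fold call.

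The log2 change of Cd81 was 0.68 ± 0.12 in WT (1.60-fold, 1.31 to 1.96, adjusted p = 0.00644 by limma) and 0.70 ± 0.07 in PPARγ/+ cells (1.62-fold, 1.44 to 1.83, adjusted p = 0.000366). That of Cd9 was -0.36 ± 0.09 (adjusted p = 0.0204) and -0.23 ± 0.06 (adjusted p = 0.02), and with libraries rescaled by the median-ratio method it was -0.23 (adjusted p = 0.104) and -0.10 (adjusted p = 0.204), no longer under 0.05. A ratio within a library does not depend on such scaling. Cd9 to Cd81 was 1.51 to 1.80 in WT_0d, 0.672 to 0.989 in WT_5d, 1.96 to 2.20 in PPARγ/+_0d and 1.08 to 1.12 in PPARγ/+_5d, with no overlap between any 2 of the 4 groups. The log2 ratio was lower on 5d by -0.98 and higher in PPARγ/+ than in WT cells by 0.43, each with an exact permutation p = 0.005, the smallest the 400 arrangements allow, and adjusted p = 0.02.

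Of the junctional adhesion molecules, Jam2 was 16.8, 24.4 and 15.1 FPKM in WT_0d and 21.8, 20.6 and 15.5 FPKM in WT_5d, overlapping. In PPARγ/+ cells Jam2 was 7.82, 8.95 and 10.1 FPKM on 0d and 20.2, 18.8 and 20.3 FPKM on 5d, without overlap. It rose 2.20-fold (1.88 to 2.58, log2 fold change 1.14 ± 0.10, adjusted p = 0.000179 by limma) in PPARγ/+ cells, and its change in WT cells was 0.05 ± 0.21. Jam3, its binding partner, lay between 4.61 and 6.55 FPKM in all 12 libraries, with log2 changes of 0.17 ± 0.15 in WT and 0.16 ± 0.08 in PPARγ/+ cells. The ratio of Jam3 to Jam2 was 0.491 to 0.630 in PPARγ/+_0d and 0.192 to 0.423 in the other 9 libraries. Over both days its log2 ratio differed between cell types by 0.50 (adjusted p = 0.113, exact permutation) and over both cell types between days by -0.43 (adjusted p = 0.13, exact permutation). Without WT_5d replicate 3 the former was 0.62 and passed the threshold (adjusted p = 0.024, exact permutation).

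**Figure D3:**
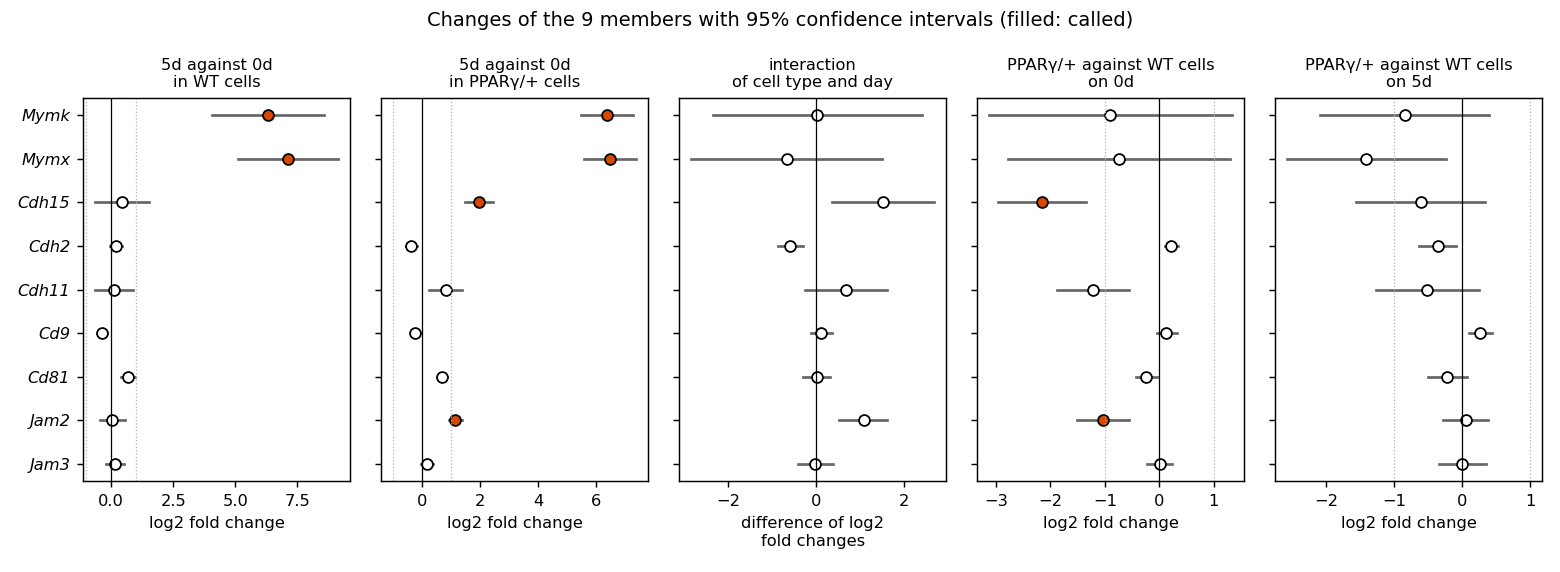
Log2 fold change of FPKM + 0.1 (x axis) of each of the 9 genes (y axis) in the 5 comparisons, with 95% confidence intervals as bars, filled points where the gene was called and dotted lines at 2-fold. The middle panel shows the difference between the changes of the 2 cell types. Mymk and Mymx are the only genes called in both panels of 5d against 0d, and Cdh15 and Jam2 are called in PPARγ/+ cells and, with the opposite sign, on 0d.

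Whether the 2 cell types changed differently with time was tested as an interaction over all 12 libraries, called at an adjusted p of at most 0.05. None of the 9 was called, where 0.583% of all genes were called in the higher and 0.178% in the lower direction. The lowest p-values were those of Cdh2 (difference -0.58 ± 0.13, adjusted p = 0.076 by limma, unadjusted p = 0.000856), Jam2 (1.09 ± 0.25, adjusted p = 0.0815, unadjusted p = 0.00103) and Cdh15 (1.54 ± 0.53, adjusted p = 0.262, unadjusted p = 0.0142). Cdh11 differed by 0.70 ± 0.43 (adjusted p = 0.575). The calls of Cdh15 and Jam2 in PPARγ/+ cells and not in WT cells are thus not shown to be a difference between the cell types. The difference was 0.04 ± 1.08 for Mymk (95% interval -2.34 to 2.42) and -0.66 ± 0.99 for Mymx (-2.84 to 1.51), intervals that leave several-fold differences in either direction. Without WT_5d replicate 3 Cdh2 was called (-0.67, adjusted p = 0.0141), and without both WT libraries that stood apart Cdh2 (-0.65, adjusted p = 0.0264) and Jam2 (0.73, adjusted p = 0.0324) were.

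The cell types were then compared on each day, called at an adjusted p of at most 0.05 and at least 2-fold. On 0d 2 of the 9 were called lower with PPARγ, Cdh15 and Jam2, where 1.23% of all genes were called lower, and 0 of 9 were called higher, where 0.361% were. The median log2 fold change of the 9 was -0.75 against 0.02 over all genes tested. These comparisons share libraries, since the 0d libraries compared here are also the start of the changes with time.

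Cdh15 was 4.44-fold lower in PPARγ/+_0d than in WT_0d (log2 fold change -2.15 ± 0.33, adjusted p = 0.0309 by limma) and Jam2 was 2.05-fold lower (-1.04 ± 0.19, adjusted p = 0.0489). In both, every PPARγ/+_0d library was below every WT_0d library. The cell types did not overlap on 0d for 5 of the 9, where 26.8% of all genes tested did not. Cdh11 was lower by a log2 fold change of -1.21 ± 0.27 with an adjusted p = 0.0706, and was called when genes under 1 FPKM were left out of the fit (adjusted p = 0.0333). Both calls were lost when any 1 of the 6 libraries was left out, over which Cdh15 ranged from -2.43 to -1.89 and Jam2 from -1.18 to -0.84, so the direction held while the call did not. Without WT_0d replicate 2 the adjusted p was 0.0875 for Cdh15 and 0.0747 for Jam2.

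Of the 4 myoblast markers, 2 moved with them on 0d. Des, the muscle intermediate filament protein, was 108 to 180 FPKM in WT_0d and 45.5 to 62.9 FPKM in PPARγ/+_0d, and Myf5, a myogenic transcription factor, was 11.3 to 13.2 and 3.66 to 4.25 FPKM, both called lower. Myod1, the myogenic factor above myogenin, was 6.57 to 21.5 FPKM in WT_0d and 5.03 to 9.68 FPKM in PPARγ/+_0d and was not called, nor was Vim. The part of these differences in those of Cdh15 and Jam2 was not tested. Cdh2 (0.22 ± 0.05, adjusted p = 0.0755), Cd81 (-0.24 ± 0.08, adjusted p = 0.153) and Cd9 (0.13 ± 0.08, adjusted p = 0.354) differed by less than 1.2-fold on 0d. Mymk (-0.90 ± 0.91) and Mymx (-0.75 ± 0.83) overlapped between the cell types on 0d, and without WT_0d replicate 2 their differences were 0.10 and 0.09.

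On 5d none of the 9 was called between PPARγ/+ and WT cells, where 0.0943% of all genes were called higher and 0.061% lower. The log2 fold change was -1.41 ± 0.48 for Mymx (2.66-fold lower, adjusted p = 0.325 by limma), -0.85 ± 0.51 for Mymk (adjusted p = 0.516), -0.61 ± 0.39 for Cdh15 (adjusted p = 0.544), -0.52 ± 0.31 for Cdh11 (adjusted p = 0.516) and 0.26 ± 0.07 for Cd9 (adjusted p = 0.222). Jam2 differed by 0.05 ± 0.13 (95% interval -0.28 to 0.38) and Jam3 by 0.00 ± 0.14 (-0.35 to 0.35). All 3 PPARγ/+_5d libraries were below all 3 WT_5d libraries for Mymx and Cdh2, and above them for Cd9, so that 3 of the 9 did not overlap, where 18.5% of all genes tested did not.

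This comparison turned on 1 library. WT_5d replicate 3 had 92.6 FPKM of Mymk, 24.1 FPKM of Mymx and 23.6 FPKM of Cdh15, below, just above and below the range of PPARγ/+_5d cells, while the other WT_5d libraries had at least 321, 76.1 and 60.7 FPKM. Without it 3 of the 9 were called lower in PPARγ/+_5d cells, Mymk (-1.46, adjusted p = 0.00604 by limma), Mymx (-1.97, adjusted p = 0.00706) and Cdh15 (-1.08, adjusted p = 0.00604). The number of all 18023 genes called went from 28 (11 lower, 17 higher) to 723 (508 lower, 215 higher). Leaving out any other library of the comparison called 0 of the 9.

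Like Mymk, Myog, the gene of the differentiation factor myogenin, was higher on 5d in both cell types. Myog was 1.47 to 15.7 FPKM in WT_0d, 90.0 to 271 FPKM in WT_5d, 0.603 to 3.22 FPKM in PPARγ/+_0d and 78.8 to 90.3 FPKM in PPARγ/+_5d. The ratio of Mymk to Myog was 1.03 to 1.49 in WT_5d and 1.38 to 1.44 in PPARγ/+_5d, and so overlapped between cell types on 5d. On 0d it was 0.583 to 0.679 in WT and 0.735 to 1.28 in PPARγ/+ cells, without overlap. In both cell types every 0d ratio was below every 5d ratio, so the ratio was not constant. This ratio was chosen after its values were seen and was not tested.

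**Figure D4:**
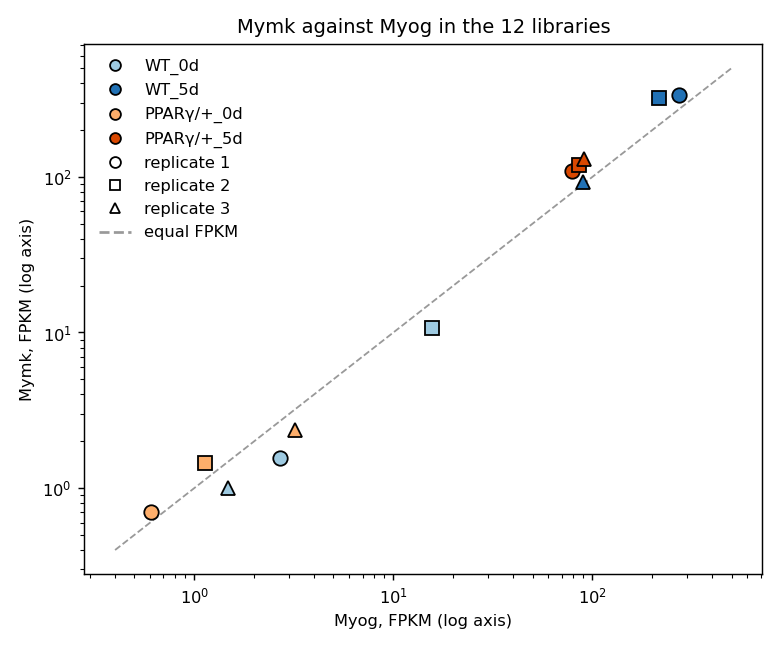
FPKM of Mymk (y axis, log) against FPKM of Myog (x axis, log), 1 point per library, coloured by group with the symbol giving the replicate number and a dashed line where both are equal. WT_0d replicate 2 lies between the 0d and 5d libraries and WT_5d replicate 3 lies with the PPARγ/+_5d libraries.

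Over the 12 libraries the log2 levels of Mymk and Mymx had a Pearson r of 0.99, those of Cdh15 and Jam2 0.95, of Mymk and Cd81 0.96, and of Cd9 and Cd81 -0.88. Cdh2 and Jam3 had no r above 0.45 in size with any other of the 9. Among 11680 genes, those most like Mymk were Acta1 (r = 0.999), Mybph and Mylpf (both 0.998), which encode contractile proteins of muscle, and those most like Mymx were Gm17455 (0.993), Klhl41 and Tnnt3 (both 0.992). Cd81 was most like Rtn2 (0.992), Camk2a and Atp2a1 (both 0.988), the last the calcium pump of fast muscle fibres. Cdh15 was most like Sulf1 and Popdc3 (both 0.985) and Tnfaip3 (0.984), Jam2 like St3gal1 (0.981), Gm7361 (0.972) and Tanc2 (0.966), and Cdh11 like Filip1l (0.966), Casd1 (0.941) and Bves (0.919). Cd9 was most like Prl2c3 (0.950), Btg1 (0.946) and Cobll1 (0.931), Jam3 like Ccdc173 (0.909), Snora34 (0.819) and Smpd2 (0.790), and Cdh2 like Stau2 (0.864), Hip1 (0.852) and Ttc13 (0.847). The 12 points share 2 days and 2 cell types, so a high r says that 2 genes separate the same libraries.

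The wider gene families gave the setting. Of 24 tested receptors and adhesion proteins of myoblast fusion, 10 were called higher on 5d in WT and 8 in PPARγ/+ cells, 0 and 1 (Itga6) were called lower, and the list's median log2 fold change was 0.49 and 0.40. Over all genes tested 8.94% and 9.11% were called higher, 7.53% and 6.06% lower, and the median was -0.08 and -0.10, and the lists that follow are set against the same values. The fatty acid receptor Cd36 rose from 0.0162 ± 0.00526 to 1.35 ± 0.766 FPKM in WT and from 0.596 ± 0.385 to 6.84 ± 2.17 FPKM in PPARγ/+ cells. The chemokine Cxcl12 rose from 27.3 ± 6.26 to 121 ± 61.2 FPKM in WT (4.07-fold) and from 47.0 ± 10.5 to 134 ± 3.71 FPKM in PPARγ/+ cells (2.90-fold). Vcam1, the ligand of the integrin made with Itga4, rose from 9.66 ± 2.52 to 30.1 ± 15.1 FPKM and from 6.71 ± 1.47 to 33.2 ± 2.46 FPKM, and the prostaglandin F receptor gene Ptgfr rose 5.98-fold and 6.28-fold. The part of the adipocyte markers in the Cd36 level of PPARγ/+ cells was not tested.

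Of 31 tested genes of actin remodelling and Rac signalling, 1 was called higher in WT cells and 0 in PPARγ/+ cells. It was Elmo1, a partner of the exchange factor Dock1 (3.33-fold, from 4.17 ± 1.40 to 14.0 ± 3.92 FPKM). In PPARγ/+ cells Elmo1 also rose, from 9.0 ± 1.63 to 16.7 ± 1.71 FPKM (1.87-fold), short of the 2-fold call. Of 18 tested genes of membrane remodelling, 6 were higher and 1 lower (Anxa2) in WT cells, and 5 were higher in PPARγ/+ cells. Trim72, a membrane repair protein of muscle, rose from 0.325 ± 0.272 to 30.7 ± 19.4 FPKM in WT and from 0.111 ± 0.0509 to 8.60 ± 0.755 FPKM in PPARγ/+ cells. Cav3, the muscle caveolin, was 9.64 ± 6.40 FPKM in WT_5d and 1.80 ± 0.408 FPKM in PPARγ/+_5d, and was listed at 0 in 2 of 3 PPARγ/+_0d libraries. Dysf, the gene of dysferlin, rose 3.20-fold in WT and 2.14-fold in PPARγ/+ cells. No gene of these 3 lists was called in the interaction or between cell types on either day. Few of all genes tested were called there: 0.583% higher and 0.178% lower in the interaction, 0.361% and 1.23% on 0d, and 0.0943% and 0.061% on 5d. The absence of calls is therefore not a result about these lists.

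The catenins and junction plaque genes that cadherins bind came next, with 19 tested. On 5d 0 were called higher and 2 lower in WT cells, where 8.94% and 7.53% of all genes tested were. In PPARγ/+ cells 1 was called higher and 1 lower, where 9.11% and 6.06% were. Counts in 19 genes are too small to set apart from those shares. Pkp4, an armadillo-repeat protein, fell 2.18-fold in WT cells, from 10.5 ± 0.826 to 4.80 ± 0.915 FPKM, and 2.20-fold in PPARγ/+ cells, from 8.38 ± 1.14 to 3.75 ± 0.403 FPKM. Jup, the gene of plakoglobin, rose 2.10-fold in PPARγ/+ cells, from 9.95 ± 0.571 to 21.1 ± 3.47 FPKM. In WT cells Jup was 17.9 ± 1.19 FPKM on 0d and 26.6 ± 11.6 FPKM on 5d, overlapping and not called. The β-catenin gene Ctnnb1 lay between 70.6 and 92.4 FPKM and the α-catenin gene Ctnna1 between 126 and 186 FPKM in all 12 libraries.

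Of 9 cadherins tested, members included, 2 were called higher on 5d in WT cells (Cdh13 and Cdh23), and in PPARγ/+ cells 3 were higher (Cdh13, Cdh15 and Cdh23) and 1 lower (Cdh17). Cdh13, a cadherin anchored to the membrane by a lipid, rose 3.91-fold in WT cells, from 7.81 ± 3.25 to 29.6 ± 5.67 FPKM, and 2.28-fold in PPARγ/+ cells, from 9.20 ± 2.65 to 20.6 ± 0.107 FPKM. Cdh18 was the other cadherin called lower on 0d in PPARγ/+ cells, 2.04-fold (1.86 ± 0.505 against 3.85 ± 0.373 FPKM, adjusted p = 0.0496 by limma). Cdh17 and Cdh23 were below 1 FPKM in every library.

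Of 24 tetraspanins tested, 5 were higher on 5d in WT cells (Tspan8, Tspan11, Tspan13, Tspan32 and Tspan33) and 7 in PPARγ/+ cells, and none was called lower. Their median log2 fold change was 0.51 and 0.52, against -0.08 and -0.10 over all genes, so the 1.60-fold and 1.62-fold of Cd81 lay above it and the change of Cd9 below. Cd82, a tetraspanin of myogenic progenitors, rose from 31.3 ± 8.98 to 60.1 ± 14.5 FPKM in WT cells (1.93-fold), without overlap but short of the 2-fold call. In PPARγ/+ cells it rose 3.17-fold, from 17.3 ± 2.98 to 54.6 ± 2.27 FPKM. Its interaction was not called (adjusted p = 0.376 by limma). Tspan8 rose 5.20-fold and 2.50-fold in the 2 cell types, and Tspan32 rose from 0.873 ± 0.50 to 8.45 ± 5.84 FPKM in WT cells and from 0.151 ± 0.00880 to 0.628 ± 0.134 FPKM in PPARγ/+ cells. Cd53 was the only one called lower on 0d in PPARγ/+ cells, at 0.210 to 0.374 against 0.888 to 1.09 FPKM.

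Of 8 tested genes of the JAM family and its relatives, F11r, which encodes JAM-A, rose on 5d in both cell types, from 4.07 ± 1.08 to 10.0 ± 4.29 FPKM in WT (2.34-fold) and from 2.24 ± 0.0591 to 6.18 ± 0.505 FPKM in PPARγ/+ cells (2.68-fold). Igsf11 fell 2.75-fold in WT cells, from 3.97 ± 0.716 to 1.38 ± 0.292 FPKM. In PPARγ/+ cells it fell 1.78-fold, from 3.08 ± 1.62 to 1.56 ± 0.187 FPKM, and was not called. Igsf5 was 0.559 to 0.828 FPKM in WT_0d and at most 0.0662 FPKM in every other library, and was called lower on 5d in WT cells, lower in PPARγ/+ cells on 0d and in the interaction. Jam2 was thus 1 of 2 genes of this list, with Igsf5, that were called lower in PPARγ/+ cells on 0d.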

How the data were processed

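RNA-seq of 12 C2C12 libraries, 3 biological replicates in each of 4 groups named by the labels, was analysed from 2 tables that the authors deposited, 1 of FPKM per Ensembl gene and 1 of log2 values. The deposited log2 table differs from log2(FPKM + 1) by at most 5.3e-14 and was used only for that check. Per the labels, reads were aligned with STAR, and the labels name the build mm9 while the study's methods name GRCm38. Exonic lengths of GRCm38 (GENCODE M21) gave whole fragments, within 0.01, for 21231 of 27138 expressed genes (78.2%), and for the others of the 9 members the nearest length that did was used to give fragments. Depth was recovered from the same steps, and covers counting error only. Any pair of libraries differed at 21594 genes or more, so none was a copy.

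Genes with at least 0.1 FPKM in at least 3 of 12 libraries were kept (18023 of 46983), and log2(FPKM + 0.1) was fitted with limma 3.58.1 in R 4.3.3 (empirical Bayes with a trend), which understates the change of low genes. The thresholds for 5d against 0d (unadjusted p of 0.05 and 2-fold) follow the study's. For the interaction the threshold was an adjusted p (Benjamini-Hochberg) of 0.05, and the cell types on 1 day at that and 2-fold. Within each comparison of 2 groups the fit held those 6 libraries, and the interaction held 12. Log2 ratios of pairs of members were tested two-sided by exact permutation within strata. The fit was tested on simulated data. Alternatives were other pseudocounts (1 and 0.01), filters, scalings, all libraries in 1 fit, the replicate number as a block and each library left out.

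The members and gene lists were chosen with earlier results of these data known. Genes named were all members, up to 3 called genes of each list and comparison by size of change where the higher group reached 1 FPKM, and the 3 genes most like each member. Names outside this rule complete counts of 5 or fewer or were chosen after their values were seen (Cd53, Cdh17, Cdh23, Igsf5, Itga6, Anxa2, Ctnnb1, Ctnna1, Tspan11, Tspan33, Cd82 in WT cells, and marker genes). A result of 1 gene under this rule is not reported here.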

Additional observations from a re-analysis of the deposited data

Results flagged for a closer look

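Tspan15, a tetraspanin related to Cd9 and Cd81, was the only 1 of 24 tested tetraspanins whose change from 0d to 5d was called different between the cell types. It was 11.6 to 15.9 FPKM in WT_0d, 14.4 to 15.2 FPKM in WT_5d, 7.45 to 8.5 FPKM in PPARγ/+_0d and 15.2 to 17.0 FPKM in PPARγ/+_5d. The log2 fold change was 0.08 ± 0.13 in WT and 1.0 ± 0.08 in PPARγ/+ cells, and their difference was 0.93 ± 0.15 (adjusted p = 0.0231 by limma over 18023 genes). The PPARγ/+_0d libraries were the low ones and did not overlap any other group.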

How the results depend on the processing

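The calls of Mymk and Mymx in WT cells and of Mymk, Mymx, Cdh15 and Jam2 in PPARγ/+ cells between days held under every alternative run. The number of all genes called there went from 2970 to 1441 (WT) and from 2735 to 1241 (PPARγ/+) with a pseudocount of 1, and to 1806 (PPARγ/+) with a filter at 1 FPKM. Between cell types on 0d (287 genes and 2 of the 9 members), a pseudocount of 1 gave 115 genes and 1 member, a pseudocount of 0.01 and median-ratio scaling gave 1 member each, no filter gave 107 genes and 0 members, and leaving out 1 library gave 55 to 137 genes and 0 members. On 5d (28 genes, 0 members), a pseudocount of 1 gave 8 genes, 0.01 gave 71, all 12 libraries in 1 fit gave 199, and leaving out 1 library gave 1 to 723 genes and 0 to 3 members. For the interaction (137 genes, 0 members) leaving out 1 library gave 42 to 527 genes and 0 to 1 members. Leaving out WT_0d replicate 2 and WT_5d replicate 3 together, chosen after seeing the data, gave 488 genes and 2 members in the interaction, 90 genes and 0 members on 0d, and 723 genes and 3 members on 5d. With median-ratio scaling the median over all genes was 0.02 in both cell types, in place of -0.10 in PPARγ/+ and -0.08 in WT cells. The cause of each of these shifts was not tested.

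Leaving out 1 library, the log2 ratio of Cdh15 to Cdh2 ranged from 1.13 to 1.48 between days (past the threshold without 1 of 12 libraries) and from -1.50 to -1.17 between cell types (without 2 of 12). That of Cd9 to Cd81 between cell types ranged from 0.37 to 0.51 and missed the threshold without PPARγ/+_5d replicate 1 or 2, that of Cdh11 to Cdh2 from -0.92 to -0.66, and that of Jam3 to Jam2 from 0.37 to 0.62. Over single members and comparisons, 657 of 729 alternatives kept the direction and the call, and none of the others reversed a call.

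Over all genes tested, a pairing by replicate number was not seen. Deviations from the group means had correlations of -0.0678 to 0.0834 for the same number and -0.122 to 0.102 for different numbers. For single members this can differ. Between days in WT cells the replicate block lowered the SE of Mymk from 0.93 to 0.54, of Mymx from 0.84 to 0.41 and of Cdh15 from 0.45 to 0.18. It raised that of Cdh2 from 0.10 to 0.11 and of Cdh11 from 0.32 to 0.36. Cdh15 was still not called (adjusted p = 0.144 by limma). With the replicate block the calls were 61 genes for the interaction, 0 on 0d and 0 on 5d, with 0 members in each, and the 0d values were -2.15 (adjusted p = 0.183 by limma) for Cdh15 and -1.04 (adjusted p = 0.181) for Jam2. The 3 libraries a group and the few Mymx fragments on 0d limit the precision.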

Other observations

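The level of Mymk relative to Mymx, 2 proteins that act together in fusion, was 4.22, 4.21 and 3.85 in the 3 WT_5d libraries and 5.96, 6.69 and 5.50 in the 3 PPARγ/+_5d libraries, so the groups did not overlap. WT_5d replicate 3, whose Mymk and Mymx levels were near those of PPARγ/+_5d cells, had the lowest ratio of the 6. On 0d the ratio was 4.6 to 25.2 and rested on few Mymx fragments. The ratio was chosen after its values were seen and was not tested.

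Other tetraspanins at high level in these cells were Cd63, at 487 to 606 FPKM in WT_0d, 730 to 887 FPKM in WT_5d, 413 to 472 FPKM in PPARγ/+_0d and 727 to 773 FPKM in PPARγ/+_5d, and Cd151, at 73.0 to 93.9 FPKM over all 12 libraries. Both were chosen after their values were seen.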
